A study of Mus musculus with 12 samples.

Results

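ETV4 knockout cells were compared with control cells while both were exposed to fibroblast growth factors. The members of the comparison were the 3 knockout and 3 control libraries cultured with FGF, 6 of 12 libraries in all, and every gene with enough counts in them was tested, 11755 of 31017 gene symbols. The cells were 4T1, a mouse mammary carcinoma line with epithelial features, embedded in collagen I gels. Both groups had been nucleofected with Cas9, the control group with a control guide RNA and the knockout group with a guide RNA against ETV4. Of the collagen concentrations stated, 1.2 mg/ml and 2.4 mg/ml, the one used for a given library is not recorded. FGF10 (25 ng/ml) was given to both groups together with FGF2 (40 ng/ml), in 10% serum for the first day and in 2% serum for 4 further days. Whether a pool of edited cells or a clone was used is not stated, but the 3 knockout libraries share an extra tag in their names that the control libraries lack, whose meaning is not given. If they came from 1 clone, features of that clone and the loss of ETV4 cannot be told apart. No label ties the replicates to separate cultures, and the p-values therefore reflect only how far these libraries differ, which may be technical.

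ETV4 belongs, with ETV1 and ETV5, to the PEA3 group of ETS transcription factors, which bind DNA at sites with a GGAA core. FGFs bind receptor tyrosine kinases, and the RAS and ERK cascade below the receptors raises the transcription and the activity of PEA3 factors. In the mammary gland these factors are known from branching of the epithelium, and in tumours from invasion, partly through genes for proteases and adhesion proteins.

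All 8 epithelial markers were detected, and their summed level was 5151 to 5767 CPM (counts scaled to the size of the library) in control libraries and 4446 to 4575 CPM in knockout libraries. Of the fibroblast markers Dcn, Lum, Pdgfrb and Dpt had no count, of the leukocyte markers Adgre1, Lyz2, Cd3e and Tyrobp, and of the endothelial markers Kdr, Emcn and Cldn5. The summed levels of the 9 fibroblast, 10 leukocyte and 8 endothelial markers were 8.04 to 11.4, 6.73 to 7.82 and 1.09 to 1.57 CPM in control libraries, and 12.3 to 16, 9.07 to 9.93 and 0.592 to 1.82 CPM in knockout libraries. Most of the fibroblast sum came from Pdgfra (log2 fold change 0.50, SE 0.14, edgeR adjusted p = 0.0044), and most of the leukocyte sum from Cd68 (log2 fold change 0.41, SE 0.13, edgeR adjusted p = 0.0127), a lysosomal protein that is not limited to leukocytes, and which did not pass without knockout replicate 2 (edgeR adjusted p = 0.0537). Libraries held 19434764 to 23193244 counts. Genotypes separated on the first principal component (86.1% of the variance), and control replicate 2 stood apart on the second (5.15%). Ribosomal protein genes took 5.94% of the counts of that library, 5.27% and 5.31% in the other control libraries, and 4.82% to 5.01% in knockout libraries. Mitochondrially encoded genes took 0.866% to 0.891% in control and 1.05% to 1.31% in knockout libraries. The part of these shares in the gene results was not tested.

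Etv4 itself (chromosome 11, 101769742 to 101785371, mm10) was still transcribed in the knockout cells, at a lower level. It stood at 155, 173 and 167 CPM in the control libraries and 115, 119 and 113 CPM in the knockout libraries. No library of one group reached the other, and the mean fell from 165 ± 9.48 to 116 ± 3.26 CPM, and so fell by 29.8% (log2 fold change -0.51, SE 0.059, edgeR adjusted p = 1.03e-06). Here and in what follows, a value with ± is a group mean with its SD (n = 3 libraries). Mutations made by a guide need not lower a transcript, so the level is no measure of the protein. The 50 tested genes nearest to Etv4, 25 on each side, were lower too, with a median log2 fold change of -0.46, and 22 of them lay below Etv4 itself. Once the median of each chromosome was subtracted, an alternative chosen after seeing the data, Etv4 no longer passed (log2 -0.11, edgeR adjusted p = 0.149).

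The other PEA3 factors differed from each other. Etv5 (chromosome 16, 22381309 to 22439719) was at 68.7, 69.2 and 68.9 CPM in the control libraries and 34.6, 31.8 and 32.6 CPM in the knockout libraries. Every knockout library was well below every control library, and the mean fell from 68.9 ± 0.246 to 33 ± 1.42 CPM (log2 fold change -1.06, SE 0.064, edgeR adjusted p = 2e-10). Its 50 neighbours on chromosome 16 had a median of -0.32, 4 of them lay below Etv5, and Etv5 still passed after chromosome medians were subtracted (log2 -0.69, edgeR adjusted p = 8.12e-08). Etv1 was at 99, 90.4 and 104 CPM in the control libraries and 109, 98.3 and 105 CPM in the knockout libraries. The libraries overlapped, and Etv1 did not pass (log2 fold change 0.091, SE 0.062, edgeR adjusted p = 0.225).

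Among other ETS factors, 2 of 13 tested genes were higher and 7 lower, beside 27.4% and 29.6% of all genes. None of these factors was called at 2-fold. Ets2 fell by 0.79 on the log2 scale (SE 0.057), Etv6 by 0.74 (SE 0.072), Elk1, a ternary complex factor that acts with SRF, by 0.37 (SE 0.071), and Gabpa by 0.27 (SE 0.064). The epithelial factor Elf3 rose by 0.37 (SE 0.091) and Ets1 by 0.13 (SE 0.054). Ets1 kept its call only without control replicate 1, and without any other single library its edgeR adjusted p lay between 0.0601 and 0.147. Ehf, another epithelial ETS factor, had 3 counts in control and 0 in knockout libraries.

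Knockout and control cells differed in 57% of the genes tested, but most differences were small. At an edgeR adjusted p under 0.05, 3224 genes were higher (27.4% of those tested) and 3482 lower (29.6%), and 67.5% of the called genes differed by under 1.5-fold. The libraries of the groups did not overlap for 7283 genes (62%). Larger differences were mostly decreases: 291 genes were at least 2-fold higher (2.48%) and 811 at least 2-fold lower (6.9%), 9.37% together. At 8-fold and above there were 24 increases and 196 decreases. Without control replicate 2 the counts were 3427 higher and 3635 lower, with 308 and 844 at least 2-fold. In a fit on all 12 libraries they were 2180 higher and 2682 lower. Just inside the threshold lay Cox6a1, a cytochrome c oxidase subunit (edgeR adjusted p = 0.04996), and just outside it the Wnt ligand Wnt5b (edgeR adjusted p = 0.05001).

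**Figure D1:**
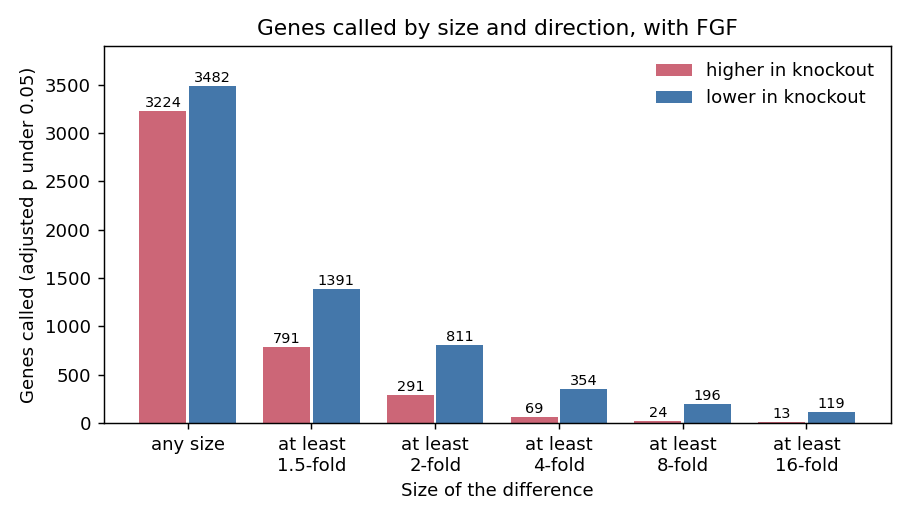
Genes called at an edgeR adjusted p under 0.05, by direction and by the smallest fold difference required (bars start at 0, numbers above the bars are gene counts). Calls of any size were near balance at 3224 higher and 3482 lower, and the decreases outnumbered the increases at every larger size, 119 against 13 at 16-fold and above.

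The asymmetry at the floor of detection was no separate support for that of the 2-fold differences, because it rested partly on the same genes. A gene without counts in a group was tested only through its counts in the other group. Of the tested genes, 32 had no count in the 3 knockout libraries and 73 had 3 counts or fewer. In the control libraries 2 had none and 6 had 3 or fewer. These 2, named after their values were seen, were the ion channel gene Trpv2, with 106 counts in knockout libraries, and the kinase gene Wnk2, with 69. The genes at least 2-fold lower had a median control level of 3.97 CPM, against 33.8 CPM over all tested genes, and the genes at least 2-fold higher had a median control level of 2.53 CPM. In bulk RNA, fewer cells with a transcript and less transcript per cell cannot be told apart.

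The largest decreases, by the same level and overlap rule as the increases, were in genes that the knockout libraries hardly contained. Gpc4 is described with the FGF co-receptors. Fam111a, a nuclear protease linked to DNA replication, had 1658 counts over the control libraries and 0 over the knockout libraries, at least 518-fold lower at a floor of 3 counts per group. Each control library held the gene, at 26, 23.6 and 27.1 CPM. In the same way Bspry had 744 counts and 0 (at least 233-fold lower), the RAB-family GTPase Rasef 529 and 0 (at least 165-fold), and the acyl-CoA thioesterase Acot1, which has close copies, 354 and 0 (at least 111-fold). Zfp518b, a zinc finger gene, had 1246 counts against 1, a ratio of 1169 whose counting interval ran from 209 to 46207. Ube2ql1, related to ubiquitin-conjugating enzymes, had 1089 against 1, a ratio of 1022 whose counting interval ran from 183 to 40389.5. These are 95% intervals and cover counting error only, as the floors do.

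Kazn, which encodes the desmosome-associated protein kazrin, was also at 0 counts in all knockout libraries (at least 91.3-fold lower). So were Dmd, the gene of dystrophin (at least 89.1-fold), Epdr1 (at least 85.1-fold) and Cd74, the invariant chain of MHC class II (at least 75.1-fold). Their levels in control libraries were low, from 3.68, 4.8 and 2.72 CPM for Cd74 to 4.65, 3.94 and 4.91 CPM for Kazn.

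With the mean log2 CPM required to be 1 or more, the largest increase was in Tnxb, which encodes the matrix glycoprotein tenascin X (chromosome 17, 34670535 to 34719815). Tnxb was at 0.586, 0.101 and 0.238 CPM in the control libraries and 12.6, 11.7 and 11.8 CPM in the knockout libraries. It was near the floor in every control library and well above it in every knockout library (log2 fold change 5.19, SE 0.26, edgeR adjusted p = 2.01e-11). Pla2g4e, a cytosolic phospholipase A2, was at 0.335, 0.556 and 0.572 CPM in the control libraries and 13.6, 12.8 and 13.9 CPM in the knockout libraries (log2 fold change 4.79, SE 0.20, edgeR adjusted p = 1.55e-12). Klk10, a secreted kallikrein-related peptidase, was at 6.82, 6.47 and 8.39 CPM in the control libraries and 87.2, 91 and 89.1 CPM in the knockout libraries (log2 fold change 3.62, SE 0.087, edgeR adjusted p = 1.37e-15). All were chosen among genes whose libraries do not overlap, so their separation is no finding. Anxa8, a membrane-binding annexin, rose from 8.21 ± 1.74 to 94.4 ± 3.12 CPM, and Cdh23, a long cadherin known from hair cell tip links, from 1.36 ± 0.113 to 14.8 ± 0.388 CPM (SD, n = 3 each). Pcsk6, a proprotein convertase, rose by 3.44 on the log2 scale (SE 0.12), and the transposase-derived Pgbd5 by 3.31 (SE 0.22). Of the other largest increases, Cavin2, Gsta1, Mmp1b and Fgfbp1, are described with their groups.

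**Figure D2:**
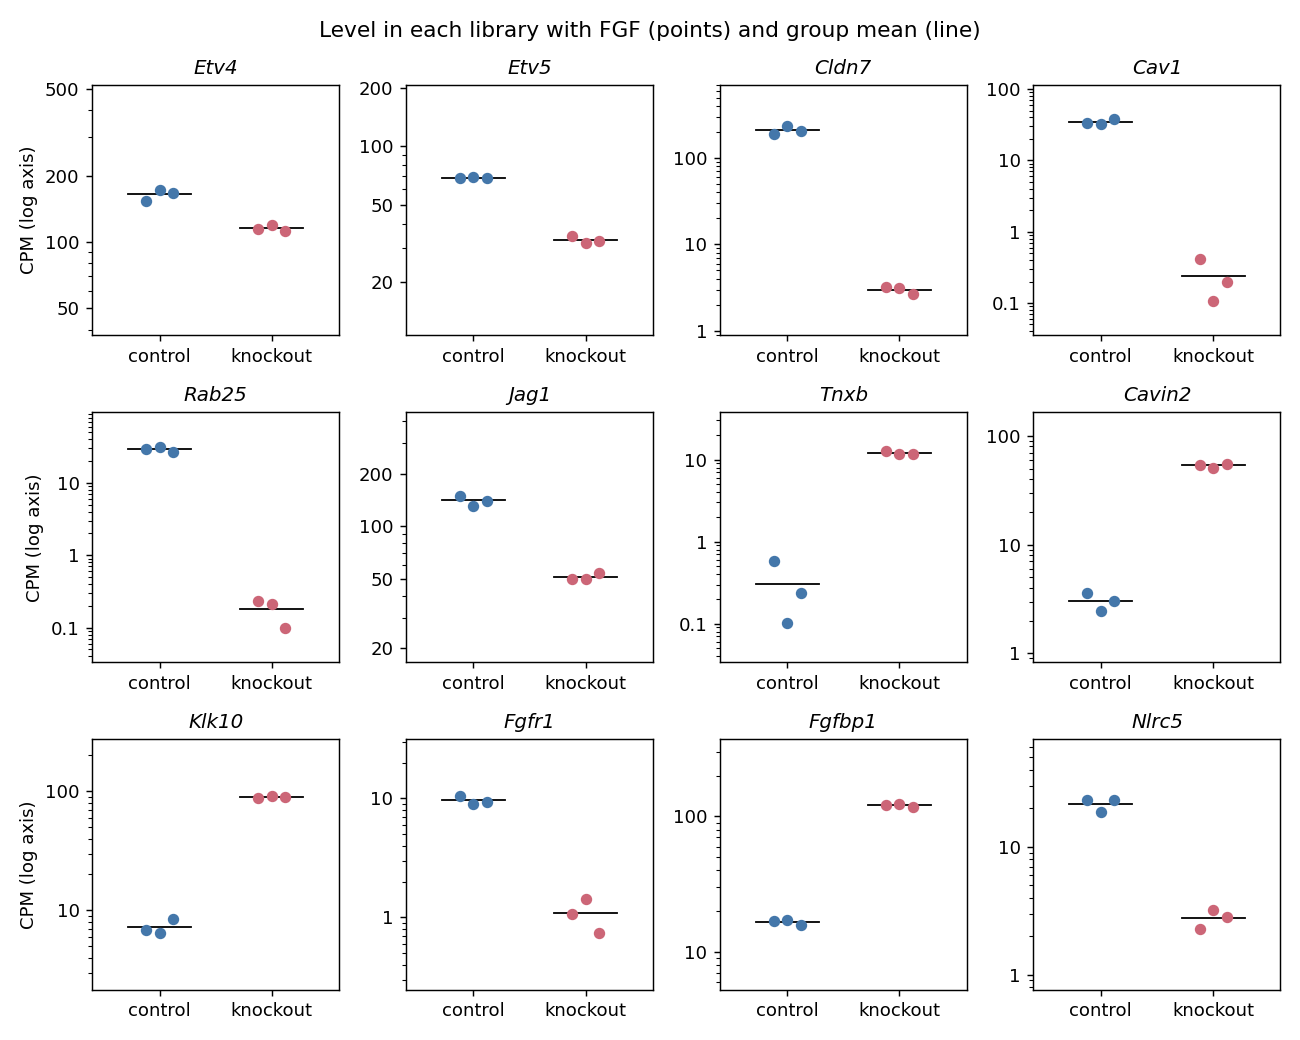
Level of 12 genes in each of the 6 libraries with FGF (points, CPM on a log axis whose range differs by panel) with the group means (lines). In all 12 genes, which were selected for display, the control and knockout libraries do not overlap, as in 62% of all tested genes. The genes run from Etv4, which fell by 29.8%, to Cldn7, Cav1 and Rab25, which were almost lost, and Tnxb, Cavin2, Klk10 and Fgfbp1, which rose. Tnxb, Cavin2, Klk10 and Fgfbp1 were chosen among genes whose libraries do not overlap, so their separation is no finding.

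Upstream sequences are printed for 4 genes on which the results turn: Cldn7 and Rab25, epithelial genes that were almost lost, Tnxb, the largest increase, and Mmp13, whose knockout difference differed with and without FGF. Each is the 250 bases before the RefSeq transcription start in GRCm38.p6, read 5′ to 3′ on the gene's strand. They lie at chr11:69964529-69964778 (plus strand; the first of 2 starts listed), chr3:88548280-88548529 (minus), chr17:34670285-34670534 (plus) and chr9:7272264-7272513 (plus). Capitals mark AGGAAG, an ETS core in the form PEA3 factors are known to bind, and TGANTCA, the AP-1 site, searched with the longer ETS form CCGGAAGT on both strands, where CTTCCT is AGGAAG on the other strand.
Cldn7: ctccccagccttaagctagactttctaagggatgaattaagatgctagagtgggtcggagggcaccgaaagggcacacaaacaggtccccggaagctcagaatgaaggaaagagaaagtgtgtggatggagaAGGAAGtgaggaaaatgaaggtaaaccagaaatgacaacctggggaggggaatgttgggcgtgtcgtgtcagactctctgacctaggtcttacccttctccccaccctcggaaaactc
Rab25: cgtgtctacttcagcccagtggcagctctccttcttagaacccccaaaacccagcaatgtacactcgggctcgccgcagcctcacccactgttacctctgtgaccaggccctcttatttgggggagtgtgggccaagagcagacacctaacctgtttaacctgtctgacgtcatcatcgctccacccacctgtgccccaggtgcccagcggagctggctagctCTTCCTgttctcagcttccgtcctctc
Tnxb: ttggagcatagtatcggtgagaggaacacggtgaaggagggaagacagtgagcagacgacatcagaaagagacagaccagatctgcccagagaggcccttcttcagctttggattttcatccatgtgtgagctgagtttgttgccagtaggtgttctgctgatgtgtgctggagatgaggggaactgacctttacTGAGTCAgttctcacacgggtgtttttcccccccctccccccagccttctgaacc
Mmp13: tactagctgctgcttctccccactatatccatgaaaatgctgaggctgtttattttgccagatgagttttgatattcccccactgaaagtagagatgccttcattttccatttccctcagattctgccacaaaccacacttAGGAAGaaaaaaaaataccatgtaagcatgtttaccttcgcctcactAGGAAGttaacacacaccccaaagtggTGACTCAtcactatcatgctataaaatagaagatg
AGGAAG stood at bases -118 to -113 of Cldn7, counted from the start with -1 as the base before it. Rab25 had it at -27 to -22 on the other strand. Mmp13 had it at -109 to -104 and at -62 to -57, and TGANTCA at -35 to -29. Tnxb held TGANTCA at -55 to -49 and no AGGAAG, and none of the 4 held CCGGAAGT. Of 32851 promoters of this length in the RefSeq table, 29.5% held AGGAAG, 6.75% TGANTCA and 2.88% CCGGAAGT. A match of letters is a description, and binding was not measured here.

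Genes of chromosomes 11 and 16 were lower as a whole. The median log2 fold change was -0.40 over 965 tested genes of chromosome 11, where 74.7% of genes were called lower and 3.94% higher, and -0.38 over 364 genes of chromosome 16, with 69.8% lower and 4.12% higher. Over all genes 29.6% were lower and 27.4% higher. The other chromosomes had medians between -0.14 (chromosome 3) and 0.25 (chromosome 17). Some were shifted upward: on chromosomes 5 and 17, 53.4% and 53.3% of genes were called higher, and 11.8% and 12.4% lower. On chromosomes 12 and 14, 49.4% and 47.5% were higher, and 11.9% and 14.1% lower. Each knockout library, set against the mean of the control libraries, showed the shift of chromosome 11, at -0.38 in all 3. The libraries without FGF had medians of -0.38 and -0.42 on chromosomes 11 and 16. Some genes described below changed in the direction of the median of their chromosome. Examples are Cavin1 and Aldoc on chromosome 11, Areg and Cenpa on chromosome 5, and Cdc42ep3 and Abcg1 on chromosome 17. Changes of DNA copy number were not measured, and their part in the chromosome shifts was not tested.

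**Figure D3:**
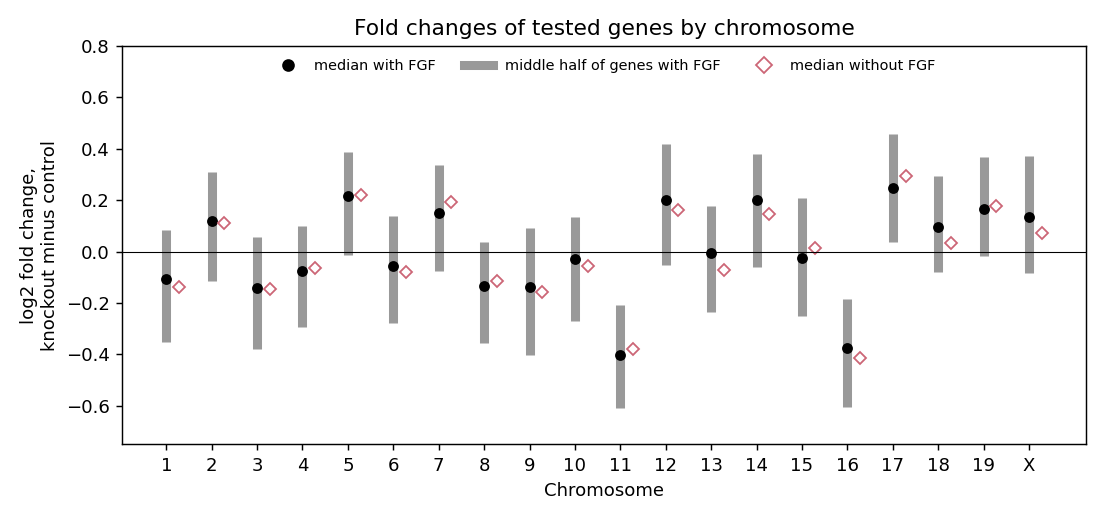
Log2 fold change of tested genes by chromosome, knockout minus control: medians (black points) and the middle part of the genes from the lower to the upper quartile (grey bars) with FGF, and medians without FGF (open diamonds). Chromosomes 11 and 16 stand lowest, at -0.40 and -0.38, with the upper quartile of their genes below 0.

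With chromosome medians subtracted, 2728 genes were higher and 2736 lower, and the genes called lower on chromosome 11 went from 721 to 216. Calls at least 2-fold were less affected, with 273 higher and 773 lower. Of the genes named here, Cldn4, Cdh1, Esrp1, Grhl1, Notch1, Efnb2, Hspa1b, Hsp90aa1, Hspa4, Fasn, Ldha, Ndufv2, Atp5j, Pdgfra, Sparc, Krt10, Kif11 and Mcm4 lost their call beside Etv4, and Itgb4, Erbb2, Vegfa, Actn1, Top2a and Gabpa changed sign. In a fit on all 12 libraries, Ets1, Gabpa, Ocln, Cdh1, Esrp1, Krt18, Krt10, Cav2, Ehd2, Erbb2, Notch1, Efnb2, Ddit3, Ldha, Vegfa, Ndufa1 and Cd68 did not pass.

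A few epithelial junction genes were almost lost. Of 20 tested tight junction genes, 4 were higher and 4 lower, 40% called against 57% of all genes, with a median log2 fold change of 0.0031. Cldn7, a claudin of the lateral membrane (chromosome 11, 69964779 to 69967885), was at 188, 234 and 206 CPM in the control libraries and 3.18, 3.17 and 2.66 CPM in the knockout libraries. All 3 knockout libraries were far below the control libraries, and the mean fell from 209 ± 23.1 to 3 ± 0.295 CPM (log2 fold change -6.12, SE 0.10, edgeR adjusted p = 1.12e-17). Tjp3, the scaffold protein ZO-3, fell from 2.55 ± 0.187 to 0.112 ± 0.101 CPM (log2 fold change -4.40, SE 0.46, edgeR adjusted p = 3.31e-07). Cldn3 fell by 0.79 on the log2 scale (SE 0.073) and Ocln, occludin, by 0.30 (SE 0.079). Crb3, an apical polarity protein, rose by 1.18 (SE 0.073) and Cldn4 by 0.33 (SE 0.053).

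Of 20 cadherin, catenin and desmosome genes, 7 were higher and 9 lower, beside 27.4% and 29.6% of all genes. At 2-fold or more there were 2 higher and 3 lower, beside 2.48% and 6.9% of all genes. Cdh1, E-cadherin, was at 389, 387 and 379 CPM in the control libraries and 351, 338 and 335 CPM in the knockout libraries (log2 fold change -0.17, SE 0.050, edgeR adjusted p = 0.00627). Its libraries did not overlap, but the decrease was under 1.5-fold. Epcam fell by 0.42 on the log2 scale (SE 0.055). Dsc2, a desmosomal cadherin, was at 7.58, 7.33 and 9.25 CPM in the control libraries and 0.934, 0.845 and 0.69 CPM in the knockout libraries (log2 fold change -3.28, SE 0.21, edgeR adjusted p = 6.02e-10). Nectin4 and P-cadherin, Cdh3, both with control means under 1 CPM, fell by 3.23 and 2.61 (SE 0.64 and 0.56), and the desmoglein Dsg3 rose by 1.76 (SE 0.33). N-cadherin, Cdh2, had 3 counts in control and 0 in knockout libraries.

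Among 24 regulators of epithelial splicing, trafficking and polarity, 10 were higher and 7 lower, beside 27.4% and 29.6% of all genes. Of these regulators 4 were at least 2-fold lower, where 6.9% of all genes were. Rab25, a GTPase of epithelial recycling endosomes (chromosome 3, 88542029 to 88548300), was at 29.4, 31.8 and 27 CPM in the control libraries and 0.234, 0.211 and 0.0986 CPM in the knockout libraries. Its 1899 control counts faced 11 in the knockout libraries (log2 fold change -7.29, SE 0.20, edgeR adjusted p = 8.07e-15). Ap1m2, the epithelial subunit of the AP-1 clathrin adaptor, fell from 31.5 ± 2.76 to 4.6 ± 0.579 CPM (log2 fold change -2.77, SE 0.12, edgeR adjusted p = 1.62e-12). Both genes belong to polarized membrane traffic, as does the myosin Myo5c, which fell by 1.52 on the log2 scale (SE 0.095). The grainyhead factor Grhl3 fell by 3.07 (SE 0.64), Grhl1 rose by 0.90 (SE 0.33), and Grhl2 was at -0.043, SE 0.059 (edgeR adjusted p = 0.553). The splicing factor Esrp1 fell by 0.17 (SE 0.057), and Ovol1 was at 0.046, SE 0.12 (edgeR adjusted p = 0.76). With single libraries left out Esrp1 missed the threshold without control replicate 1 or 3 or knockout replicate 2 or 3 (edgeR adjusted p up to 0.0767), and Grhl1 without any control replicate or knockout replicate 3 (up to 0.156).

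Of 12 mesenchymal markers, 4 were higher and 4 lower, beside 27.4% and 29.6% of all genes. Vimentin, Vim, was at 2084, 2219.6 and 2207 CPM in the control libraries and 2240.3, 2100.1 and 2094 CPM in the knockout libraries. These libraries overlapped (log2 fold change -0.017, SE 0.044, edgeR adjusted p = 0.766). Fibronectin, Fn1, fell from 1298 ± 80.7 to 499.7 ± 15.6 CPM (log2 fold change -1.38, SE 0.053, edgeR adjusted p = 5.4e-13), and Sparc fell by 0.50 on the log2 scale (SE 0.063). Higher were the hyaluronan receptor Cd44 (0.88, SE 0.046), the calcium-binding S100a4 (1.05, SE 0.080) and galectin-1, Lgals1 (0.56, SE 0.047), as log2 fold changes. Of the transcription factors of epithelial-mesenchymal transition, Twist1 was at -0.00020, SE 0.071 (edgeR adjusted p = 0.999), Zeb1 had 34 counts in control and 0 in knockout libraries and was not tested, and Snai2 had none.

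Of 9 keratins, 2 were higher and 5 lower, beside 27.4% and 29.6% of all genes. The luminal pair Krt8 and Krt18 fell by 0.43 and 0.28 on the log2 scale (SE 0.050 and 0.051), and the basal keratin Krt14 fell from 54.3 ± 1.94 to 17.6 ± 0.393 CPM (log2 fold change -1.63, SE 0.072, edgeR adjusted p = 3.37e-12). Krt10 fell by 0.53 (SE 0.18), but did not pass without control replicate 2 (log2 -0.33, edgeR adjusted p = 0.14) or without knockout replicate 1 (0.0762). Krt19 and Krt80 rose by 0.91 and 0.52 (SE 0.067 and 0.078), and Krt5 had no count.

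Caveolar genes changed in opposite directions. Caveolae are flask-shaped membrane pits built from caveolins and cavins. Cav1, the caveolin that forms the coat (chromosome 6, 17306335 to 17341452), was at 33.5, 32.4 and 38.1 CPM in the control libraries and 0.42, 0.106 and 0.197 CPM in the knockout libraries. The gene was almost lost in each knockout library (log2 fold change -7.10, SE 0.20, edgeR adjusted p = 1.07e-14). Cavin1, the cavin needed for caveolae to form, was at 472, 504 and 439 CPM in the control libraries and 194, 194 and 196 CPM in the knockout libraries (log2 fold change -1.28, SE 0.057, edgeR adjusted p = 4.05e-12). Cavin2, which shapes the caveolar membrane, was at 3.6, 2.48 and 3.05 CPM in the control libraries and 54, 51.1 and 55.1 CPM in the knockout libraries (log2 fold change 4.12, SE 0.11, edgeR adjusted p = 4.33e-15). So 1 cavin fell and another rose. Cav2 rose by 0.22 (SE 0.068), though its libraries overlapped and it did not pass without knockout replicate 1 (edgeR adjusted p = 0.088), Pacsin3 rose by 0.64 (SE 0.057) and Ehd2 fell by 0.20 (SE 0.055). In all, 4 of 8 genes of the list were higher and 3 lower, beside 27.4% and 29.6% of all genes.

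Of 15 tested collagen genes, 3 were at least 2-fold higher and 5 at least 2-fold lower (53.3%, against 9.37% of all genes). The median of the list was -0.070, against -0.0088 over all genes. Col6a1, a chain of the beaded-filament collagen VI, was at 22.6, 23.2 and 24.6 CPM in the control libraries and 8.69, 7.76 and 8.53 CPM in the knockout libraries (log2 fold change -1.49, SE 0.10, edgeR adjusted p = 9.3e-10). Its partner chain Col6a2 fell from 4.62 ± 1.01 to 0.39 ± 0.153 CPM (log2 fold change -3.53, SE 0.32, edgeR adjusted p = 4.26e-08). The basement membrane chains Col4a5 and Col4a6, neighbours on the X chromosome, were also lower: Col4a5 by 2.34 on the log2 scale (SE 0.12), and Col4a6 with 115 counts against 1, a ratio of 108 whose counting interval ran from 19 to 4298. The more widely used chain Col4a1 was at 660.3, 608 and 659 CPM in the control libraries and 635, 591 and 609 CPM in the knockout libraries and did not pass (log2 fold change -0.070, SE 0.051, edgeR adjusted p = 0.255), but did without control replicate 2 (log2 -0.11, edgeR adjusted p = 0.0266). The fibrillar collagen Col27a1 rose by 2.61 (SE 0.29), and Col1a1, the main collagen of connective tissue and of the gel, had 12 and 11 counts.

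Lama3 and Lamb3, chains of a laminin that anchors epithelial cells through hemidesmosomes, both rose. Lamb3 was at 494, 524 and 518 CPM in the control libraries and 1170.5, 1133 and 1160.2 CPM in the knockout libraries (log2 fold change 1.17, SE 0.047, edgeR adjusted p = 7.69e-13), and Lama3 rose by 1.30 (SE 0.051). Lamb3 was higher in every knockout library than in any control library. Lama5, of another laminin, was at 0.076, SE 0.049 (edgeR adjusted p = 0.195), and tenascin C, Tnc, at 0.19, SE 0.11 (edgeR adjusted p = 0.148), as log2 fold changes. Fbln1, a matrix glycoprotein, had 102 control counts and 0 knockout counts (at least 31.9-fold lower), and thrombospondin 1, Thbs1, fell from 351 ± 38.9 to 155 ± 1.02 CPM (log2 fold change -1.18, SE 0.069, edgeR adjusted p = 1.58e-10). Over the whole list 6 of 17 genes were higher and 5 lower, beside 27.4% and 29.6% of all genes.

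Of 18 collagen-modifying genes, 10 were higher and 3 lower, beside 27.4% and 29.6% of all genes. The lysyl oxidases Lox and Loxl2 were hardly present, with no count of Lox and 3 of Loxl2. Loxl3 fell from 28.5 ± 0.251 to 7.37 ± 0.703 CPM and Loxl4 rose from 55.7 ± 2.55 to 92.9 ± 4.32 CPM (SD, n = 3 each). The prolyl hydroxylase P4ha2 rose by 1.18 on the log2 scale (SE 0.13), the crosslinking transglutaminase Tgm2 by 0.71 (SE 0.13), and Pcolce, an enhancer of procollagen processing, fell by 1.05 (SE 0.079).

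Integrins, the receptors for these matrix proteins, also split. Itga6, a laminin-binding subunit, was at 359, 314 and 357 CPM in the control libraries and 1016, 967 and 976 CPM in the knockout libraries (log2 fold change 1.52, SE 0.056, edgeR adjusted p = 3.56e-13). The collagen-binding Itga2 was at 287, 228 and 275 CPM in the control libraries and 469.9, 473 and 452 CPM in the knockout libraries (log2 fold change 0.82, SE 0.069, edgeR adjusted p = 2.09e-08), and the common beta subunit Itgb1 rose by 0.31 (SE 0.042). Itga6, Itga2 and Itgb1 were higher in all knockout libraries. Itgb4, the partner of Itga6 in hemidesmosomes, was lower by 0.22 (SE 0.050) and lies on chromosome 11. Itgb2, the beta subunit of leukocyte integrins, fell from 18.4 ± 0.848 to 0.743 ± 0.174 CPM (log2 fold change -4.62, SE 0.17, edgeR adjusted p = 3.95e-13), and Itga7, Itgb3 and Itgb6 fell by 1.35, 2.01 and 1.08 on the log2 scale. Of 16 subunits tested, 5 were higher and 8 lower, beside 27.4% and 29.6% of all genes.

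Most tested genes of the list of metalloproteinases and their inhibitors were higher in knockout cells. Of 22, 16 were called higher and 3 lower, where 27.4% and 29.6% of all genes were. At 2-fold or more there were 4 higher and 3 lower, beside 2.48% and 6.9% of all genes. Without FGF, 8 of 21 were higher and 5 lower, beside 15.3% and 17.8% of all genes. With FGF the median log2 fold change of the list was 0.38 and the mean 0.086. Mmp3, stromelysin-1, was at 274, 284 and 290.1 CPM in the control libraries and 647, 663 and 663 CPM in the knockout libraries (log2 fold change 1.22, SE 0.050, edgeR adjusted p = 1.12e-12). Mmp14, a membrane-bound collagenase, was at 252, 268 and 258 CPM in the control libraries and 427, 445 and 421 CPM in the knockout libraries (log2 fold change 0.74, SE 0.052, edgeR adjusted p = 2.09e-09). Both were higher in every knockout library. Mmp9, a gelatinase, rose from 182 ± 5.43 to 230.1 ± 12.8 CPM (log2 fold change 0.34, SE 0.058, edgeR adjusted p = 7.81e-05) and Mmp13, a collagenase, from 54.5 ± 3.82 to 73.3 ± 4.82 CPM (log2 fold change 0.43, SE 0.068, edgeR adjusted p = 3.99e-05). Mmp1b, which has a close copy beside it in the genome, rose from 2.5 ± 0.142 to 19 ± 0.594 CPM and the membrane-bound Adam8 from 23 ± 1.86 to 58.7 ± 0.797 CPM (SD, n = 3 each). The decreases were in Adamts4, from 10.3 ± 0.46 to 1.11 ± 0.251 CPM (SD, n = 3 each), and in Adamts9 and Mmp19, which fell by 3.19 and 3.22 on the log2 scale (SE 0.49 and 0.70).

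In the plasminogen system, the urokinase gene Plau was at 612, 627 and 612 CPM in the control libraries and 1293, 1329 and 1338 CPM in the knockout libraries (log2 fold change 1.10, SE 0.044, edgeR adjusted p = 1.03e-12). Its receptor Plaur rose by 0.63 (SE 0.051). The other activator, Plat, was at 28.8, 26.9 and 28.7 CPM in the control libraries and 7.57, 6.5 and 7.89 CPM in the knockout libraries (log2 fold change -1.94, SE 0.10, edgeR adjusted p = 3.15e-11). The activators moved in opposite directions, with no overlap in either. Serpine2, protease nexin 1, fell from 28 ± 0.63 to 2.17 ± 0.286 CPM (log2 fold change -3.69, SE 0.12, edgeR adjusted p = 1.01e-13), the leukocyte protease inhibitor Slpi by 1.87 (SE 0.11) and Serpinb2 by 3.23 (SE 0.56). Klk10, above, was the largest increase of the list. Of 17 genes in the list 8 were higher and 8 lower, beside 27.4% and 29.6% of all genes.

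Both groups received FGF10, which binds the epithelial form of FGFR2, and FGF2, which binds several receptors. Fgfr1 (chromosome 8, 25513654 to 25575718) was at 10.5, 9 and 9.35 CPM in the control libraries and 1.07, 1.43 and 0.739 CPM in the knockout libraries. It was low in control libraries and lower still in every knockout library (log2 fold change -3.16, SE 0.20, edgeR adjusted p = 5.06e-10). Fgfr2 was at 116, 63.6 and 114 CPM in the control libraries and 96.7, 90.5 and 94.4 CPM in the knockout libraries. Control replicate 2 lay below all 3 knockout libraries, and the gene did not pass (log2 fold change -0.062, SE 0.14, edgeR adjusted p = 0.73). Without that library the log2 fold change was -0.29, with an edgeR adjusted p of 5.1e-06. Fgfr3 fell by 0.39 (SE 0.12), and Fgfr4 had 2 and 1 counts.

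Partners of FGF signalling changed in both directions. Fgfbp1, a carrier that releases FGFs from the matrix, was at 16.9, 17.3 and 15.8 CPM in the control libraries and 121, 124 and 118 CPM in the knockout libraries (log2 fold change 2.86, SE 0.065, edgeR adjusted p = 7.92e-16). Fgfbp1 was chosen among genes whose libraries do not overlap, so its separation is no finding. The heparan sulfate co-receptor Gpc4 had 401 counts in control and 0 in knockout libraries (at least 125-fold lower). Flrt3, a membrane protein that binds FGF receptors, rose from 72.8 ± 1.07 to 185 ± 5.88 CPM and the ligand Fgf1 fell from 1.16 ± 0.32 to 0.0943 ± 0.123 CPM (SD, n = 3 each). Of 18 genes of the list 8 were higher and 6 lower, beside 27.4% and 29.6% of all genes.

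Among the feedback inhibitors of ERK signalling Spry1, a Sprouty protein that blocks signalling below receptor kinases, was at 52.5, 55.6 and 59.6 CPM in the control libraries and 22.4, 23.9 and 23.5 CPM in the knockout libraries (log2 fold change -1.26, SE 0.073, edgeR adjusted p = 1.25e-10), whereas Spry2 was at 176, 178 and 177 CPM in the control libraries and 248, 257 and 240.3 CPM in the knockout libraries (log2 fold change 0.49, SE 0.054, edgeR adjusted p = 5.7e-07). These Sprouty genes thus moved in opposite directions, and Spry4 was at -0.017, SE 0.071 (edgeR adjusted p = 0.85) as a log2 fold change. The ERK phosphatase Dusp6 fell by 0.36 (SE 0.057) and Dusp4 by 0.66 (SE 0.061), while Dusp5 rose by 0.90 (SE 0.062) and Spred3 by 1.00 (SE 0.068). Dusp1, a stress-induced phosphatase of MAP kinases, rose from 155 ± 6.83 to 641 ± 35.2 CPM (log2 fold change 2.05, SE 0.058, edgeR adjusted p = 1.07e-14). Of 24 genes 8 were higher and 9 lower, beside 27.4% and 29.6% of all genes.

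Immediate early genes, which respond to growth factors and stress within minutes, included Fos at 244, 251 and 262 CPM in the control libraries and 395, 443 and 416 CPM in the knockout libraries (log2 fold change 0.73, SE 0.056, edgeR adjusted p = 6.87e-09). Every knockout library was above every control library. Jun, its AP-1 partner, rose by 0.57 (SE 0.050), Fosl1 by 0.37 (SE 0.053), Ier2 by 0.63 (SE 0.057) and Egr1 by 0.83 (SE 0.049). The related zinc finger genes Egr2 and Egr3 fell, by 1.09 (SE 0.16) and 1.89 (SE 0.10). In the list, 9 of 20 genes were higher and 6 lower, beside 27.4% and 29.6% of all genes. Cells had been freed from the gels with collagenase, and the part of that step in these genes was not tested.

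Areg, the EGF receptor ligand amphiregulin, was at 126, 139.8 and 119.9 CPM in the control libraries and 317, 349 and 337 CPM in the knockout libraries (log2 fold change 1.38, SE 0.064, edgeR adjusted p = 6.97e-12). It was higher in all knockout libraries, while Egfr was at 0.027, SE 0.21 (edgeR adjusted p = 0.923) as a log2 fold change. Erbb2 and Erbb3 fell by 0.20 and 0.36 (SE 0.060 and 0.066). Nrg2, a neuregulin, rose by 1.16 (SE 0.22), and the platelet-derived growth factors Pdgfb and Pdgfc fell by 1.52 and 2.69 (SE 0.084 and 0.60). Igfbp7, a secreted binding protein of insulin-like growth factors, fell from 27 ± 1.18 to 2.87 ± 0.385 CPM (log2 fold change -3.22, SE 0.12, edgeR adjusted p = 4.82e-13). Of 21 such ligands, receptors and binding proteins, 9 were higher and 10 lower, beside 27.4% and 29.6% of all genes.

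In the TGF-beta pathway 11 of 26 genes were higher and 7 lower, beside 27.4% and 29.6% of all genes. The receptor Tgfbr2 rose by 0.45 on the log2 scale (SE 0.058) and the co-receptor Tgfbr3 fell by 1.30 (SE 0.20). The ligand Tgfb1 was at 0.10, SE 0.053 (edgeR adjusted p = 0.101) and the inhibitor Smad7 at -0.11, SE 0.054 (edgeR adjusted p = 0.0926). Without control replicate 2 Tgfb1 passed (log2 0.12, edgeR adjusted p = 0.0314). Ltbp4, which stores the latent ligand in the matrix, rose from 84.8 ± 4.25 to 215 ± 4.3 CPM and Inhbb, an activin subunit, fell from 8.86 ± 0.775 to 1.94 ± 0.337 CPM (SD, n = 3 each). Id1, a target of BMP signals, rose by 0.99 (SE 0.083) and Id4 fell by 1.35 (SE 0.12).

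Of 27 Wnt genes, 7 were at least 2-fold lower and 3 at least 2-fold higher, where all genes also had more decreases of that size (6.9% and 2.48%). The secreted antagonist Sfrp1 was at 40.2, 38.5 and 37.4 CPM in the control libraries and 6.82, 6.81 and 5.27 CPM in the knockout libraries (log2 fold change -2.62, SE 0.10, edgeR adjusted p = 6.95e-13). Notum, an enzyme that inactivates Wnt proteins, fell from 23 ± 2.66 to 3.06 ± 0.499 CPM (log2 fold change -2.90, SE 0.14, edgeR adjusted p = 1.12e-11), and the ligand Wnt10b from 7.21 ± 0.29 to 0.577 ± 0.201 CPM (log2 fold change -3.63, SE 0.24, edgeR adjusted p = 6.82e-10). Both antagonists and a ligand were thus lower. The receptor Fzd1 fell by 2.25 (SE 0.17) and Wnt7b by 0.27 (SE 0.065), and the transcription factor Lef1 rose from 0.168 to 1.63 CPM (log2 fold change 3.22, SE 0.42, edgeR adjusted p = 4.05e-06). The usual reporters of canonical Wnt signalling were near absent, with 2 and 3 counts of Axin2 and none of Lgr5.

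Notch ligands diverged. Jag1 was at 149.7, 131 and 139.8 CPM in the control libraries and 50.1, 49.9 and 53.7 CPM in the knockout libraries (log2 fold change -1.45, SE 0.062, edgeR adjusted p = 2.19e-12), and Jag2 at 17.1, 17.7 and 14.9 CPM in the control libraries and 46.2, 47.3 and 48.8 CPM in the knockout libraries (log2 fold change 1.52, SE 0.080, edgeR adjusted p = 3.47e-11). One Jagged ligand fell and the other rose. The Delta-like ligands Dll1 and Dll4 rose by 1.09 and 0.90 on the log2 scale (SE 0.055 and 0.058). The receptor Notch3 fell from 10.4 ± 1.22 to 2.06 ± 0.352 CPM (log2 fold change -2.34, SE 0.17, edgeR adjusted p = 3.12e-09), the target Hes1 by 0.63 (SE 0.062), and Notch1 rose by 0.26 (SE 0.076).

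Guidance cues of the semaphorin, ephrin and slit families had 7 of 40 tested genes at least 2-fold lower and 1 at least 2-fold higher, beside 6.9% and 2.48% of all genes. Sema3b had 353 control and 2 knockout counts, a ratio of 166 whose counting interval ran from 45.5 to 1373, and Slit2 65 and 0 (at least 20.3-fold lower). Robo1, a slit receptor, fell from 9.2 ± 1.46 to 2.15 ± 0.227 CPM (log2 fold change -2.10, SE 0.18, edgeR adjusted p = 1.82e-08), Sema3a by 1.66 and Sema6a by 1.62 on the log2 scale (SE 0.38 and 0.22). Epha2 rose by 0.18 (SE 0.049) and Efnb2 fell by 0.19 (SE 0.059), which did not pass without control replicate 3 or knockout replicate 1 (edgeR adjusted p = 0.056 and 0.0519). Sema3c had 15 and 0 counts.

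Genes that present antigen on MHC class I had a median log2 fold change of -0.53. Of 23 tested, 17 were lower and 2 higher, and 7 were at least 2-fold lower (30.4%). Over all genes 29.6% were lower, 27.4% higher and 6.9% at least 2-fold lower. Nlrc5, the transactivator of the class I genes, was at 23.1, 18.7 and 23.1 CPM in the control libraries and 2.29, 3.22 and 2.81 CPM in the knockout libraries (log2 fold change -2.97, SE 0.14, edgeR adjusted p = 1.18e-11). Psmb8, a catalytic subunit of the immunoproteasome, was at 26.4, 28 and 21.7 CPM in the control libraries and 3.27, 3.59 and 2.27 CPM in the knockout libraries (log2 fold change -3.06, SE 0.15, edgeR adjusted p = 1.22e-11), and its companion Psmb9 fell by 3.26 (SE 0.29). Nlrc5 and Psmb8 were thus down several-fold in every knockout library. B2m, the invariant light chain, was at 340.05, 382 and 363 CPM in the control libraries and 243, 239 and 244 CPM in the knockout libraries (log2 fold change -0.58, SE 0.055, edgeR adjusted p = 1.02e-07), and the peptide transporter Tap1 fell by 0.53 (SE 0.15). H2-Q6 and H2-Q7 fell from 26.4 ± 1.63 to 3.41 ± 0.253 CPM and from 12.1 ± 0.439 to 0.971 ± 0.232 CPM (SD, n = 3 each), but these copies share most of their sequence and their counts cannot be separated with certainty.

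Interferon response genes showed the lowest median of the 35 lists, -0.75. 19 of 28 were lower and 3 higher, and 10 were at least 2-fold lower (35.7%), beside 29.6%, 27.4% and 6.9% of all genes. Isg15, a ubiquitin-like modifier, was at 45.4, 42.5 and 35.2 CPM in the control libraries and 17, 20.6 and 19.6 CPM in the knockout libraries (log2 fold change -1.11, SE 0.10, edgeR adjusted p = 3.75e-08). Sp100, a nuclear body protein, fell from 10.6 ± 1.35 to 0.955 ± 0.0495 CPM and the guanylate-binding Gbp7 from 4.32 ± 0.932 to 0.666 ± 0.209 CPM (SD, n = 3 each). Gbp2, Parp14 and Rtp4 fell by 1.62, 1.22 and 1.57 on the log2 scale (SE 0.16, 0.11 and 0.22). The transcription factor Irf1 fell by 0.85 (SE 0.071). Ifit1, a frequent marker of the response, was at 0.025, SE 0.22 (edgeR adjusted p = 0.931).

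Of 35 cytokine, chemokine and NF-kB genes, 21 were lower and 7 higher, 10 and 1 of them by 2-fold or more, where 29.6% and 27.4% of all genes were lower and higher, and 6.9% and 2.48% by 2-fold. Il1a was at 30.4, 32.2 and 33.1 CPM in the control libraries and 10.1, 11.1 and 11.2 CPM in the knockout libraries (log2 fold change -1.56, SE 0.089, edgeR adjusted p = 1.07e-10). Tnf fell from 3.12 ± 0.526 to 0.277 ± 0.137 CPM, its relative Tnfsf10 from 0.912 ± 0.266 to 0.117 ± 0.0361 CPM, the receptor Tnfrsf9 from 4.12 ± 0.342 to 0.378 ± 0.27 CPM and lipocalin-2, Lcn2, from 3.63 ± 0.102 to 0.594 ± 0.126 CPM (SD, n = 3 each). Il33 fell by 3.04 on the log2 scale (SE 0.62). Against this direction the neutrophil chemokine Cxcl1 rose by 0.65 (SE 0.057) and the NF-kB inhibitor Nfkbia by 0.46 (SE 0.057). Ccl2 had 13 control and 0 knockout counts.

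**Figure D4:**
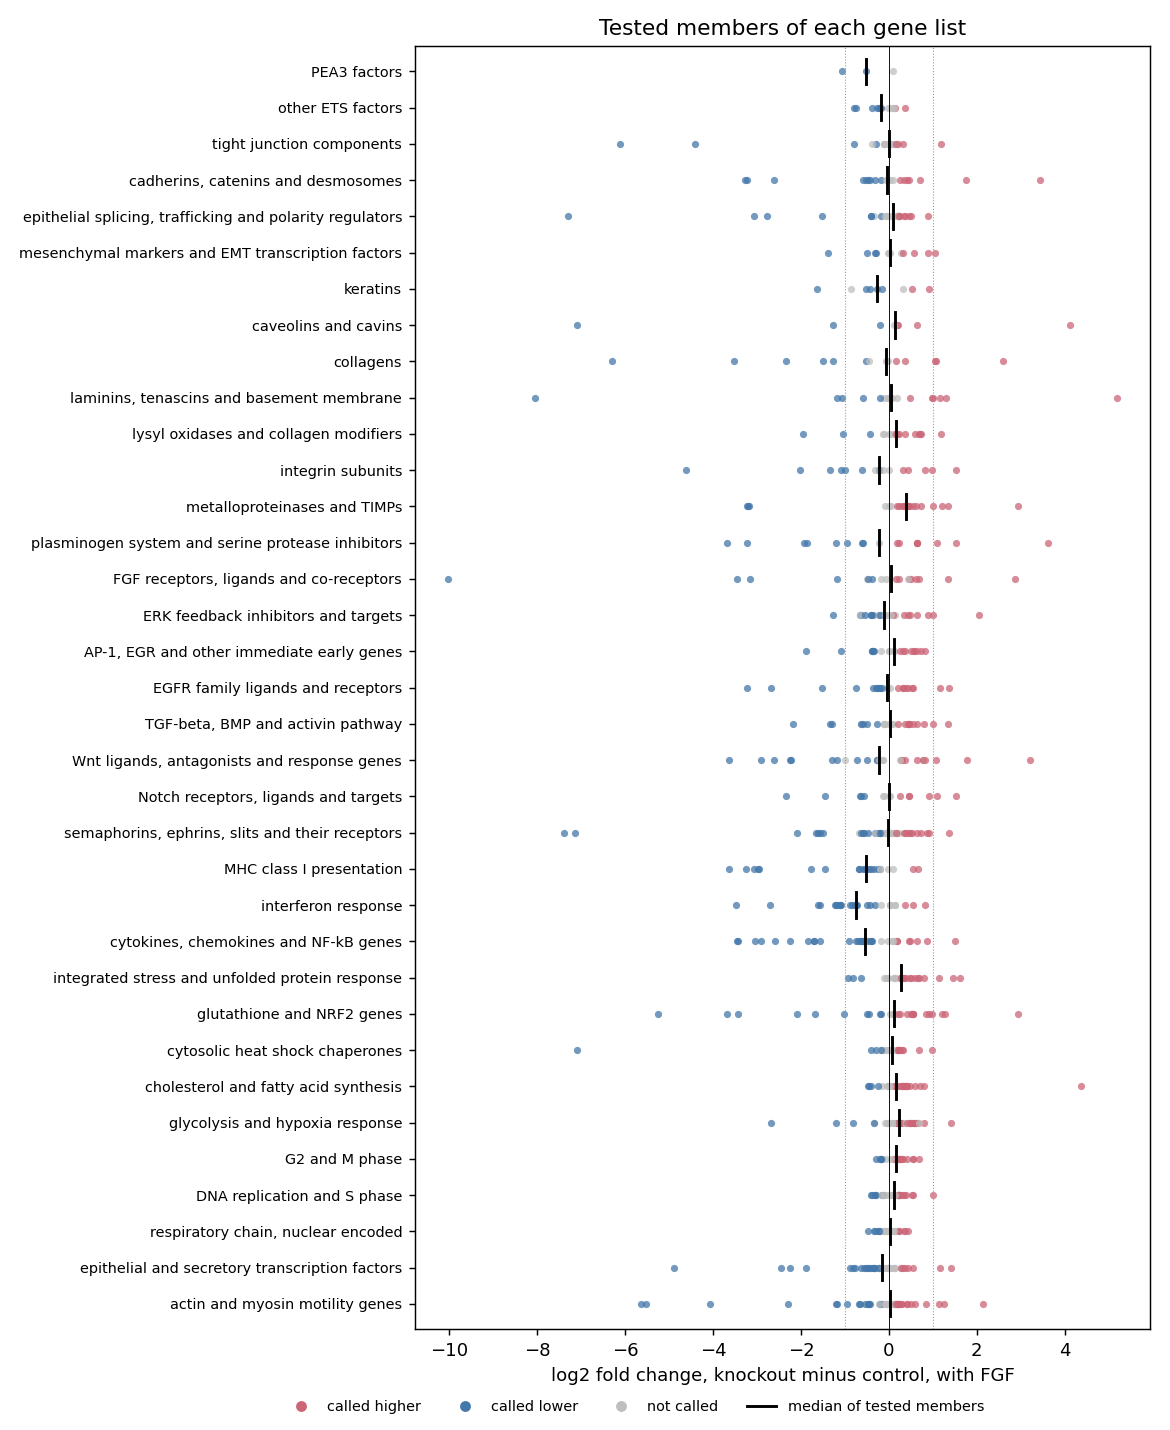
Log2 fold change with FGF, knockout minus control, of the tested members of 35 gene lists (points, red called higher, blue called lower, grey not called) with the list medians (black bars) and dotted lines at 2-fold. The interferon, cytokine and MHC class I lists have medians of -0.75, -0.54 and -0.53, while most other lists straddle 0 with single members far out on the left. Fitted values of members at 0 counts in a group (Fbln1, Gpc4, Slit2 and Hspb1) are no measured folds.

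Over all genes 6.9% were at least 2-fold lower and 2.48% at least 2-fold higher, and in 24 of the 35 lists, too, more members were 2-fold lower than higher, with 4 lists the other way and 7 with equal counts. With genes without counts set at their bound, mean and median had opposite signs in 10 lists, 9 of them with a median above 0, where a few large decreases pulled the mean below it. These were the tight junction, epithelial trafficking, caveolin, FGF, TGF-beta, Notch, glutathione and NRF2, heat shock and motility lists, with the ERK feedback list as the exception. With the fitted values the laminin list was another, with a median of 0.052 and a mean of -0.045. The bound moved the median of 0 lists.

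Of 27 genes of the integrated stress and unfolded protein responses, 16 were higher and 3 lower, beside 27.4% and 29.6% of all genes, with a median of 0.27. Hspa5, the chaperone BiP of the endoplasmic reticulum, was at 1310.3, 1334 and 1271 CPM in the control libraries and 2066, 2052 and 2046 CPM in the knockout libraries (log2 fold change 0.65, SE 0.042, edgeR adjusted p = 4.44e-10). All knockout libraries exceeded all control libraries. Atf4, the central factor of the integrated stress response, rose by 0.31 (SE 0.057), its relative Atf5 by 1.46 (SE 0.072), and the targets Chac1, Trib3 and Ddit3 by 1.62, 1.14 and 0.34 (SE 0.11, 0.14 and 0.11). Ddit3 did not pass without control replicate 3 or knockout replicate 2 (edgeR adjusted p = 0.0508 and 0.0719). Nupr1 and Ddit4, also stress-induced, fell by 0.92 and 0.82 (SE 0.073 and 0.086).

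The NRF2 targets Hmox1, heme oxygenase, and Nqo1, a quinone reductase, rose by 1.21 and 0.98 on the log2 scale (SE 0.079 and 0.060), and the cystine transporter Slc7a11 by 0.84 (SE 0.10). Gclc, of glutathione synthesis, was at 0.11, SE 0.070 (edgeR adjusted p = 0.198). Glutathione transferases went both ways: Gstm2 fell from 18.3 ± 0.54 to 1.68 ± 0.541 CPM, Mgst1 from 13.5 ± 0.847 to 1.06 ± 0.068 CPM and Mgst2 from 4.47 ± 0.391 to 1.05 ± 0.192 CPM, whereas Gsta1, which has a close copy in the genome, rose from 0.877 ± 0.443 to 6.58 ± 0.263 CPM (SD, n = 3 each). Cbr3, a carbonyl reductase, had 55 against 1 counts, a ratio of 51.6 whose counting interval ran from 8.88 to 2075. Of 30 genes 14 were higher and 10 lower, beside 27.4% and 29.6% of all genes.

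Cytosolic chaperones had 10 of 23 genes higher and 4 lower, beside 27.4% and 29.6% of all genes. Hsph1 rose from 228 ± 1.06 to 451 ± 3.98 CPM (log2 fold change 0.99, SE 0.050, edgeR adjusted p = 2.01e-11), Hspb8 by 0.69 (SE 0.066), Hspa8 by 0.33 (SE 0.048), Hsp90aa1 by 0.26 (SE 0.049) and Hspa1b by 0.30 (SE 0.055). Hspa1a, a near-identical copy of Hspa1b, had 20 and 27 counts, so reads of the pair may be assigned to either. The small heat shock gene Hspb1 had 52 control and 0 knockout counts (at least 16.3-fold lower), and Hspa4 fell by 0.41 (SE 0.051).

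In sterol and fatty acid synthesis 18 of 32 genes were higher and 4 lower, beside 27.4% and 29.6% of all genes. The sterol enzymes Cyp51, Fdft1 and Idi1 rose by 0.70, 0.59 and 0.49 on the log2 scale (SE 0.048, 0.053 and 0.054). Fatty acid synthase, Fasn, on chromosome 11, fell by 0.47 (SE 0.057). The sterol exporter Abcg1, barely present in control libraries, rose from 0.16 ± 0.122 to 3.35 ± 0.343 CPM (log2 fold change 4.38, SE 0.40, edgeR adjusted p = 5.69e-08).

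In the glycolysis and hypoxia list 20 of 34 genes were higher and 4 lower, beside the same shares of all genes. Ndrg1, a hypoxia-induced gene, was at 276, 299 and 269.8 CPM in the control libraries and 765, 748 and 736 CPM in the knockout libraries (log2 fold change 1.41, SE 0.053, edgeR adjusted p = 4.17e-13). The pyruvate dehydrogenase kinase Pdk1 rose by 0.79 (SE 0.081), the carbonic anhydrase Car9 by 0.67 (SE 0.18), the glucose transporter Slc2a1 by 0.23 (SE 0.056), Vegfa by 0.22 (SE 0.064) and Ldha by 0.17 (SE 0.054). Ldha did not pass without control replicate 1 or 3 or knockout replicate 1 (edgeR adjusted p of up to 0.068). Aldoc, an aldolase, fell from 20.9 ± 0.827 to 3.25 ± 0.0699 CPM (log2 fold change -2.69, SE 0.12, edgeR adjusted p = 3.37e-12), and the transcription factor Bhlhe40 by 1.19 (SE 0.068).

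Of 27 genes of G2 and M phase 17 were higher and 4 lower, beside 27.4% and 29.6% of all genes, and none was called at 2-fold. In the fit on all 12 libraries 9 were higher and 2 lower. Mki67, the Ki-67 antigen, was at 365, 301 and 339 CPM in the control libraries and 572, 536 and 508 CPM in the knockout libraries (log2 fold change 0.68, SE 0.066, edgeR adjusted p = 1.05e-07). The centromere and spindle genes Cenpa, Prc1, Tpx2 and Kif11 rose by 0.55, 0.55, 0.40 and 0.32 and cyclin B1, Ccnb1, by 0.26. Cdk1 and Top2a were at 0.073 and -0.060 (edgeR adjusted p = 0.262 and 0.324), and without control replicate 2 Top2a was at -0.095 with an edgeR adjusted p of 0.0377. For DNA replication the counts were 13 higher and 6 lower of 30, with 7 higher in the fit on all 12 libraries. Pola1, of DNA polymerase alpha, rose by 1.00, Rrm2, of ribonucleotide reductase, by 0.55, Uhrf1 by 0.52 and Pcna by 0.34. Mcm4, on chromosome 16, fell by 0.42, and Mcm2 and Ccne1 were at -0.091 and 0.18 (edgeR adjusted p = 0.216 and 0.162).

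Of 28 nuclear genes of the respiratory chain, 5 were higher and 6 lower (39.3% called, beside 57% of all genes). Without control replicate 2 there were 11 higher. Ndufa1, Ndufv2 and cytochrome c, Cycs, rose by 0.45, 0.36 and 0.34 on the log2 scale (SE 0.12, 0.068 and 0.053). The ATP synthase subunits Atp5j and Atp5o fell by 0.47 and 0.35 (SE 0.061 and 0.068). Atp5b, Cox4i1 and Sdhb were at 0.088, -0.11 and -0.033 (edgeR adjusted p = 0.143, 0.237 and 0.638), and Atp5b passed without control replicate 2 (log2 0.15, edgeR adjusted p = 0.000366).

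Of 42 transcription factors of epithelial lineages, 19 were lower and 7 higher, beside 29.6% and 27.4% of all genes. Sox9, a factor of epithelial progenitors, was at 269.6, 273 and 269 CPM in the control libraries and 173, 173 and 175 CPM in the knockout libraries (log2 fold change -0.64, SE 0.052, edgeR adjusted p = 1.42e-08). Sox15 fell from 13.4 ± 0.302 to 0.438 ± 0.281 CPM and the vitamin D receptor, Vdr, from 26.7 ± 2.8 to 4.9 ± 0.446 CPM (SD, n = 3 each). Irx3, Prdm1 and Sox4 fell by 2.25, 1.88 and 0.49 on the log2 scale (SE 0.15, 0.35 and 0.048). The chromatin factor Hmga2 was at 566, 465 and 543 CPM in the control libraries and 1393, 1407 and 1393 CPM in the knockout libraries (log2 fold change 1.41, SE 0.060, edgeR adjusted p = 2.03e-12), the reverse direction. The luminal factors Gata3 and Foxa1 were at 0.13 and -0.11 (edgeR adjusted p = 0.06 and 0.557), and Gata3 passed without control replicate 2 (log2 0.17, edgeR adjusted p = 0.00848).

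Of 48 genes of actin, myosin and cell motility, 19 were higher and 16 lower, beside 27.4% and 29.6% of all genes. The actin nucleator Cobl rose from 5.2 ± 0.959 to 23.1 ± 1.2 CPM (log2 fold change 2.14, SE 0.12, edgeR adjusted p = 1.29e-10), and the septin-binding effector Cdc42ep3 from 20.1 ± 0.443 to 44.2 ± 1.38 CPM (log2 fold change 1.14, SE 0.072, edgeR adjusted p = 4.61e-10). Rhob rose by 0.59 (SE 0.047) and Actn1, alpha-actinin, by 0.19 (SE 0.048). The guanine nucleotide exchange factors Spata13 and Arhgef19 fell from 12.3 ± 0.817 to 0.266 ± 0.112 CPM and from 12.4 ± 0.763 to 0.724 ± 0.0331 CPM (SD, n = 3 each). The tubulin Tubb2b was at 13.5, 15 and 14.4 CPM in the control libraries and 0.374, 0.211 and 0.246 CPM in the knockout libraries (log2 fold change -5.64, SE 0.22, edgeR adjusted p = 5.48e-13), and the actin bundler Espn fell by 2.30 (SE 0.13). Myl9 had 1 and 0 counts.

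Most of the large differences were also present without FGF. The 6 libraries of that comparison are separate from the ones above and had no added FGF, in 2% serum. A first day in 10% serum and the days of culture are not recorded for them. Differences of serum or time can therefore not be told apart from FGF. These libraries varied more, with a biological coefficient of variation of 0.139 against 0.0622. There 1805 genes were higher (15.3% of 11777 tested) and 2097 lower (17.8%), with 258 (2.19%) and 812 (6.89%) at least 2-fold. Of 11627 genes tested in both conditions 1581 were called higher in both, 1832 lower in both and 9 in opposite directions. Of the 1044 genes that differed at least 2-fold with FGF and were tested without it, 919 were called in the same direction without FGF. Over genes, which are not independent replicates, Pearson's r between the fold changes was 0.923 and Spearman's rho 0.793.

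Without FGF, the log2 fold change was -5.57 for Cldn7 (SE 0.13), -6.88 for Cav1 (SE 0.30), -6.21 for Rab25 (SE 0.34) and 5.18 for Tnxb (SE 0.31). The keratins Krt8 and Krt18, which fell with FGF, were at 0.057 and 0.13 without it (edgeR adjusted p = 0.792 and 0.492). Of the immediate early genes Fos was at -0.10 and Jun at 0.18 (edgeR adjusted p = 0.583 and 0.105). The collagen receptor subunits Itga2 and Itgb1 were at 0.19 and -0.066 (edgeR adjusted p = 0.504 and 0.666). None of these genes passed the test of the difference between the conditions itself.

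That test, an interaction fitted over all 12 libraries, called 2 of 12079 genes (0.0166%), Mmp9 and Mmp13. At an unadjusted p under 0.05 there were 1227 genes, and DESeq2 called 67 at an adjusted p under 0.05. On simulated counts the test recovered 67.2% of 2-fold and 25.4% of 1.5-fold interactions. The simulation gave all 12 libraries the same spread for a gene. The libraries without FGF varied more (coefficient of variation 0.139 against 0.0622), so these shares need not hold for the data. Scaled over the 12 libraries, Mmp9 was at 122.6, 126.8 and 118.5 CPM in control and 77.5, 89.3 and 74.8 CPM in knockout libraries without FGF, and at 175.4, 183.2 and 185.8 CPM and 241.9, 232.4 and 216.4 CPM with FGF. Knockout libraries were all below control libraries without FGF and all above them with FGF. The knockout difference was log2 -0.63 (SE 0.089) without and 0.34 (SE 0.058) with FGF, and the interaction 0.95 (edgeR adjusted p = 0.0123).

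Mmp13 was at 49.4, 54.1 and 54.6 CPM in control and 35.7, 28.4 and 36.8 CPM in knockout libraries without FGF. With FGF it was at 58.6, 51.01 and 53.7 CPM and at 73.7, 78.1 and 68.4 CPM. Again the order of the groups turned with FGF, without overlap in either condition. The knockout difference was log2 -0.66 (SE 0.13) without and 0.43 (SE 0.068) with FGF, and the interaction 1.08 (edgeR adjusted p = 0.0243). Both calls were sensitive to single libraries. With each of the 12 libraries left out in turn, 0 to 120 genes were called: 120 without knockout replicate 2 of the libraries without FGF, 6 without its replicate 3, 1 without control replicate 2 with FGF, and none when any 1 of 7 others was left out. The interaction of Mmp9 was between 0.90 and 1.03 and that of Mmp13 between 0.97 and 1.146 in these fits.

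**Figure D5:**
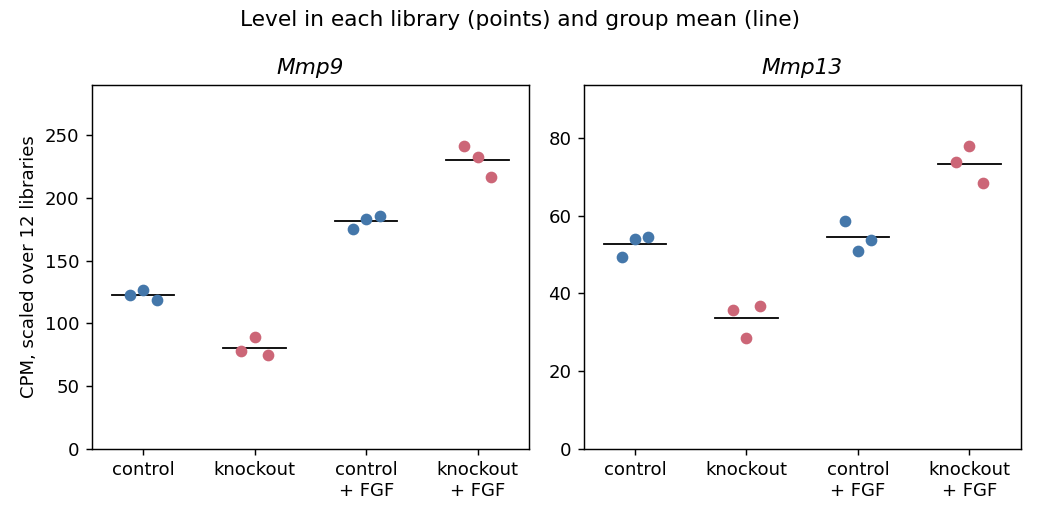
Levels of Mmp9 and Mmp13 in each of the 12 libraries (points, CPM scaled over the 12 libraries) with the group means (lines). In both genes the knockout libraries lie below the control libraries without FGF, at means of 80.5 against 122.7 CPM for Mmp9 and 33.6 against 52.7 CPM for Mmp13, and above them with FGF, at 230.3 against 181.5 CPM and 73.4 against 54.4 CPM.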

How the data were processed

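RNA was measured by stranded polyA RNA sequencing of 12 libraries of 4T1 cells, of which 6 enter the main comparison. The deposited values are raw read counts per gene symbol. The submitters' processing notes name STAR 2.7.9a, featureCounts, FastQC 0.11.9 and R 4.1.1, and as builds mm10 and hg38. The annotation, strand setting and treatment of multimapping reads were not given in the sources at hand, so reads of overlapping, antisense or near-identical genes may be counted for either. No column of per-sample values was left unused (0).

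Genes were kept by edgeR's filterByExpr, counts were scaled by TMM, and groups were compared with the quasi-likelihood F-test of edgeR 4.0.16 in R 4.3.3 on the 6 libraries with FGF, two-sided, with Benjamini-Hochberg adjustment over all 11755 genes and calls under 0.05. CPM values use the TMM-scaled library sizes, and a standard error (SE) is the log2 fold change divided by the root of F. With 4 residual degrees of freedom from 6 libraries the test borrows spread across genes. On simulated counts of the 11755 genes, changes of 1.5-fold were recovered in 77.6% of cases, of 2-fold in 95.5% and of 4-fold in 98.5%. There were 5 false among 186 calls. Only 200 genes were changed here and in the simulated interaction below, and no chromosome was shifted as a whole. In the data 57% of genes were called, so these shares need not hold there. An exact permutation test of 3 against 3 libraries cannot go below 0.1 and was not used. The interaction of genotype and FGF was fitted on all 12 libraries over 12079 genes, where simulated data gave 5 false among 129 calls. Those simulated data had the same spread with and without FGF, unlike the libraries. DESeq2 1.42.0 and limma-voom 3.58.1 served as alternatives.

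Totals of 19434764 to 23193244 counts per library limit weak genes most. Where a group had 0 counts, the bound uses a floor of 3 counts over the group's 3 libraries. Replicates differed by more than counting noise (chi-square per degree of freedom 3.62 to 11.2), so each library counted once. Gene positions are from GENCODE on mm10, 1-based. Of the symbols, 30416 matched directly, 115 through a synonym, 48 to several places and 438 to none.

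Genes named are Etv4, Etv1, Etv5 and fixed anchor genes of each list, whatever their result. Also named are the 12 largest changes in each direction among called genes without overlap between groups whose log2 CPM averaged 1 or more. Up to 5 members of each list with the largest changes were taken, only from called members whose libraries did not overlap. For genes named only by size in these ways, the call and the separation of libraries are no finding. Up to 8 interaction genes were taken from genes called in both the interaction test and the main comparison. Some genes that the rule names are not reported here. The members and the 35 gene lists were chosen with earlier results of these data known, so list counts are descriptions.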

Additional observations from a re-analysis of the deposited data

Results flagged for a closer look

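The knockout difference of Mmp9, a gelatinase, differed between culture with and without FGF by 0.95 on the log2 scale (with FGF minus without, edgeR interaction test, adjusted p = 0.0123). It was lower in 3 of 3 knockout libraries without FGF and higher in 3 of 3 with FGF. Whether serum and days of culture matched between the conditions is not recorded. The call was lost when any of 7 of the 12 libraries was left out: each of the 3 control libraries without FGF, control replicates 1 and 3 with FGF, and knockout replicates 1 and 2 with FGF. The adjusted p then lay between 0.0513 and 0.091.

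For Mmp13, a collagenase, the corresponding difference was 1.08 (edgeR adjusted p = 0.0243), again with 3 of 3 knockout libraries lower without FGF and 3 of 3 higher with it. This call was lost without the same 7 libraries and also without control replicate 2 with FGF, with adjusted p between 0.0535 and 0.153. DESeq2 called both genes (adjusted p = 7.3e-15 and 3.17e-08).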

How the results depend on the processing

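The counts of genes higher and lower with FGF stayed within 1.5 times their values under every alternative run. The fit on all 12 libraries came near that limit, with 2180 higher against 3224 and 2682 lower against 3482. At least 2-fold it had 297 higher and 883 lower. Leaving out each library in turn gave 2859 to 3427 higher and 3159 to 3635 lower, with 290 to 311 and 822 to 887 at least 2-fold. Among the named genes, Cav2, Cd68, Ddit3, Efnb2, Esrp1, Ets1, Grhl1, Krt10 and Ldha lost their call when some library was left out, and Gata3, Smad7, Grhl1, Ets1 and Ldha lay on either side of the threshold depending on scaling, tool or filter. The medians of chromosomes 11, 16 and 3 went to -0.45, -0.42 and -0.19 with upper-quartile scaling and to -0.43, -0.41 and -0.18 with no filter on low counts. That of chromosome 17 was 0.25 with RLE size factors and with DESeq2, 0.20 with upper-quartile scaling, 0.24 with no filter and 0.24 with a filter of 1 CPM. With single libraries left out it was 0.25 to 0.26, and that of chromosome 3 was -0.15 to -0.12.

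Small lists moved most, but the counts over all genes moved too. From 3224 higher and 3482 lower they went to 2736 and 3937 with upper-quartile scaling. In the fit on all 12 libraries they went to 2180 and 2682. The sizes and main counts of the lists are given with each list above. Other ETS factors had 1 higher with upper-quartile scaling, the 1 CPM filter and the fit on all 12 libraries, and 1 to 3 higher and 4 to 7 lower with single libraries left out. Heat shock chaperones had 7 lower with upper-quartile scaling. Respiratory chain genes had 4 to 11 higher with single libraries left out. In the fit on all 12 libraries, where libraries without FGF widen the shared spread, 3 other ETS factors and 2 keratins were lower, 2 caveolar and 5 FGF genes higher, 6 EGFR family genes lower, 5 chaperones higher and 2 lower, 9 genes of G2 and M phase higher and 2 lower, 7 of S phase higher, 3 respiratory chain genes higher and 3 lower, and 12 actin and motility genes higher.

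With chromosome medians subtracted, the counts over all genes went from 3224 higher and 3482 lower to 2728 and 2736. In that fit 1 PEA3 factor, 4 other ETS factors, 1 chaperone, 2 sterol genes, 1 gene of G2 and M phase, 2 of S phase and 2 of the respiratory chain were lower, and 6 epithelial regulators, 1 interferon gene and 8 S phase genes higher. The log2 fold changes that changed sign were Itgb4 at 0.18, Erbb2 at 0.20, Vegfa at -0.027, Top2a at 0.34, Actn1 at -0.0065 and Gabpa at 0.10. These sign changes follow from the subtraction itself. The medians subtracted were -0.40 on chromosome 11, -0.38 on chromosome 16, 0.20 on chromosome 12 and 0.25 on chromosome 17. The origin of the chromosome medians was not tested.

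Without FGF, 2723 genes were higher in the fit on all 12 libraries, and 857 to 3509 higher and 1223 to 3578 lower with single libraries left out, the highest counts without knockout replicate 2. The interaction called 67 genes with DESeq2 and 0 to 120 with single libraries left out. Replicate numbers did not pair the libraries (correlations of same-numbered deviations 0.028, 0.020 and -0.058), and with the replicate block 3297 genes were higher and 3521 lower with FGF, 294 and 811 at least 2-fold, and 3 genes passed the interaction.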
